A study of Homo sapiens with 16 samples.

Results

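The genes described here are 7 semaphorins (SEMA3A, SEMA3C, SEMA3D, SEMA3F, SEMA4B, SEMA4C and SEMA7A), the plexin PLXNA1 and the neuropilins NRP1 and NRP2. They are 10 of the 58735 genes in the count tables and 10 of the 31 genes annotated as semaphorins, plexins or neuropilins. Each was taken as the table row whose identifier carries that symbol in GENCODE 29. The set was put together with the siYES1 and siNS values of both cell lines known, so those values are given as a description, without a p-value for any of the 10 genes.

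The data are polyadenylated RNA-seq read counts from SUM159PT and MDA-MB-231, cell lines that the labels give as triple negative breast cancer cells with a WT genotype. Within each line, siRNA against YES1, a SRC family tyrosine kinase, was compared with siRNA against firefly luciferase (siNS). All 4 groups (SUM159PT siYES1, SUM159PT siNS, MDA-MB-231 siYES1 and MDA-MB-231 siNS) received their siRNA in a cationic lipid reagent, are labelled 48 hrs, and hold 4 libraries each. The series calls these replicates technical, so the spread and the p-values here measure variation between such samples and not between independent cultures. Each group is a bulk sample of 1 established line, in which fewer cells of a kind and less RNA per cell cannot be told apart. The lines were grown in different media, and the SUM159PT columns carry the prefix S149 in the sample descriptions, so line, medium and table cannot be told apart.

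Semaphorins are ligands that steer axons and migrating cells, and they act in vessels, immune cells and tumours as well. Class 3 semaphorins are secreted and bind a neuropilin, which has a short cytoplasmic tail, paired with a class A plexin that carries the signal through its GTPase-activating domain. Classes 4 to 6 are transmembrane proteins that mostly bind plexins directly, and SEMA7A is held at the surface by a GPI anchor and binds integrin β1 and PLXNC1. Neuropilins also bind VEGF, so semaphorin and VEGF signalling meet at these co-receptors.

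Total counts per library were 15680459 to 23451253. The targeted gene was checked first: YES1 averaged 18.3 ± 1.92 CPM (the normalised read count, scaled to library size) in SUM159PT siYES1 and 142.4 ± 25.3 CPM in SUM159PT siNS, and 12.9 ± 0.767 CPM in MDA-MB-231 siYES1 and 59.4 ± 5.78 CPM in MDA-MB-231 siNS (SD, n = 4 each), so 12.9% and 21.8% of the control level remained. The first principal component separated the siRNAs in each line. On the second, SUM159PT siNS replicate 1 stood apart at 32.4, with the other SUM159PT siNS libraries at -22.6 to -8.97. The MDA-MB-231 siNS libraries fell into pairs, with replicates 1 and 2 at 13.2 and 13.0 and replicates 3 and 4 at -12.3 and -13.8. Where a call for the 10 genes rests on these libraries, the value without them is given. The values of other genes are from all libraries. Without SUM159PT siNS replicate 1, the log2 fold changes (siYES1 over siNS) described below for that line were -2.36 for SEMA3A, -1.28 for SEMA3F, -0.73 for SEMA7A and -0.55 for PLXNA1, and all 4 were still called lower. ESR1 and PGR stayed under 1 CPM in all 4 groups and ERBB2 averaged 68.1 to 112 CPM. Of other cell types, 1 to 2 of 6 endothelial markers and 0 to 2 of 5 macrophage markers averaged 1 CPM or more in a group. In siNS of both lines these were PECAM1 and KDR (endothelial) and CD14 and CSF1R (macrophage). Their siNS means in MDA-MB-231 were 6.52, 3.23, 7.88 and 10.8 CPM. In SUM159PT siNS, PECAM1 averaged 2.06, KDR 19.7 and CD14 3.83 CPM. The other markers of these lists, CDH5 and PTPRC among them, stayed under 1 CPM in every group. The sums over each whole list were lower with siYES1 in SUM159PT (endothelial 1.83 to 2.48 against 17.0 to 25.6 CPM, macrophage 0.967 to 2.20 against 5.10 to 7.25 CPM). They were also lower in MDA-MB-231 (endothelial 4.96 to 7.08 against 7.21 to 12.1 CPM, macrophage 6.30 to 9.56 against 17.1 to 21.7 CPM). The fibroblast markers, 4 of 5 of them at 1 CPM or more in SUM159PT and 3 of 5 in MDA-MB-231, summed to 678 to 788 against 1810 to 2090 CPM and to 24.6 to 29.9 against 58.8 to 69.5 CPM. In SUM159PT most of the fibroblast sum was COL1A1 (658 CPM with siYES1 and 1730 with siNS), while DCN was higher with siYES1 (22.3 and 16.6 CPM). The neuron markers, genes of a cell type that semaphorins act on, summed to 112 to 123 CPM in SUM159PT siYES1 against 101 to 131 CPM in SUM159PT siNS, and to 1.08 to 1.70 against 4.52 to 6.51 CPM in MDA-MB-231. Most of the neuron sum in SUM159PT was MAP2 (114 CPM with siYES1 and 113 with siNS). SNAP25 (1.91 and 6.56 CPM) and RBFOX3 (0.809 and 1.70 CPM) were lower there with siYES1. The part of these marker genes in the results below was not tested.

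A gene was called higher or lower when its adjusted p (edgeR's quasi-likelihood test, Benjamini-Hochberg over all genes tested) was under 0.05. All 10 genes passed the filter on low counts in each comparison. In SUM159PT, 4 of the 10 were called lower with siYES1 (SEMA3A, SEMA3F, SEMA7A and PLXNA1), 0 were called higher by edgeR, by DESeq2 or at an unadjusted p under 0.05, and 6 were not called. In MDA-MB-231, 5 were called lower (SEMA3A, SEMA3C, SEMA3D, SEMA3F and SEMA7A), SEMA4C was called higher, and 4 were not called. SEMA3A, SEMA3F and SEMA7A were called lower in both lines, and SEMA4B, NRP1 and NRP2 in neither. Over all genes tested, 19.0% were called lower and 17.7% higher in SUM159PT, and 27.5% lower and 24.9% higher in MDA-MB-231. The median log2 fold change of the 10 genes was -0.19 in SUM159PT and -0.33 in MDA-MB-231, beside -0.03 and 0.0015 for all genes tested. Because the set was chosen on these contrasts, nothing is read from these counts and medians. Scaling by total counts alone moved the median of all genes by -0.17 in SUM159PT and by -0.22 in the difference of effects between lines, and fold changes here are relative to TMM scaling. In SUM159PT it called 1394 genes higher and 4173 lower, where TMM scaling called 2566 and 2755.

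**Figure D1:**
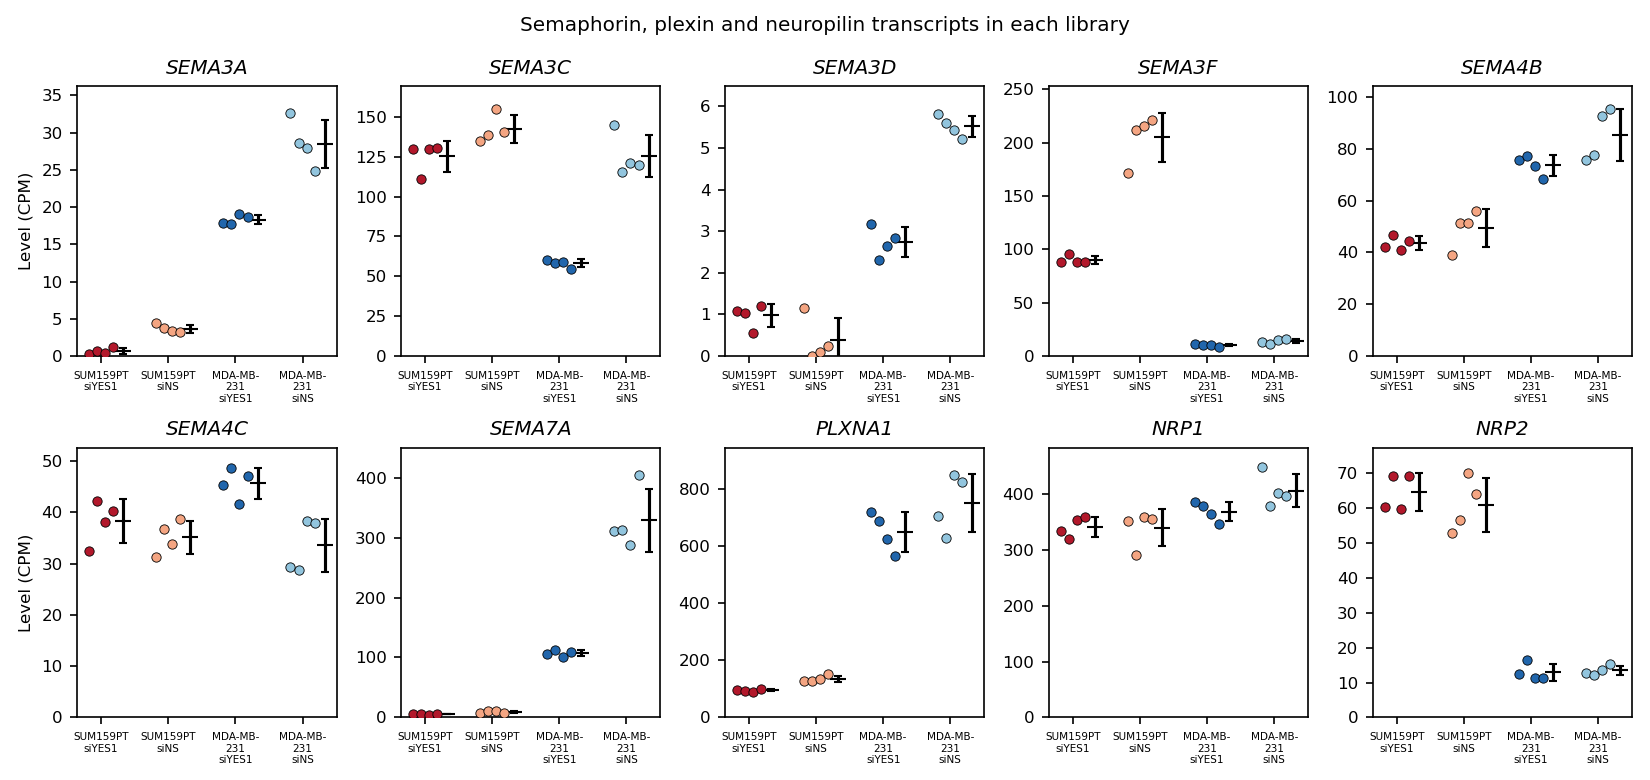
Level of each of the 10 genes (y axis, CPM from 0) in every library (points, in replicate order), by group, with SUM159PT left of MDA-MB-231 and siYES1 left of siNS. Black bars give the mean and SD of 4 libraries. In SUM159PT the SEMA3F siYES1 libraries lie at 87.8 to 95.3 CPM and the siNS libraries at 171.4 to 221.7 CPM, and in MDA-MB-231 the SEMA7A libraries lie at 101.1 to 112.3 CPM with siYES1 and 287.0 to 404.7 CPM with siNS.

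The stretches around the start sites of 4 ligand genes are shown, picked by the responses of these genes. SEMA3F was lowered more in SUM159PT and SEMA3C in MDA-MB-231, and in MDA-MB-231 SEMA7A was lower while SEMA4C was higher. A link between the stretches and these responses was not tested. The stretches run 5′ to 3′ along the gene's strand, from 250 bases before to 50 bases after a RefSeq start site in GRCh38.p14: chr3:50154808-50155107 (plus) for SEMA3F, chr7:80922340-80922639 (minus) for SEMA3C, chr15:74433909-74434208 (minus) for SEMA7A and chr2:96870031-96870330 (minus) for SEMA4C. Capitals mark matches to any of 9 motifs searched on both strands.
SEMA3F: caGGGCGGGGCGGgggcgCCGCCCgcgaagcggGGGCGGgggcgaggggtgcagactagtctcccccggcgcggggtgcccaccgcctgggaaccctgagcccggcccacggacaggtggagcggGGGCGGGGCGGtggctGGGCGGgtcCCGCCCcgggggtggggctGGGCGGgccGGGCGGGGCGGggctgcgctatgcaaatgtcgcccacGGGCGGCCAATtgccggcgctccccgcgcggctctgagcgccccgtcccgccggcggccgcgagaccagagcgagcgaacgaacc
SEMA3C: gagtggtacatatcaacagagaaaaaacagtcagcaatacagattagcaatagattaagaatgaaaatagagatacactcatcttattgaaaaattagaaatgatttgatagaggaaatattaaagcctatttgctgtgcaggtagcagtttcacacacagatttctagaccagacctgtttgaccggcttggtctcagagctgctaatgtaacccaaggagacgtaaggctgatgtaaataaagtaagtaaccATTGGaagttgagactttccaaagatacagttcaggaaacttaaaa
SEMA7A: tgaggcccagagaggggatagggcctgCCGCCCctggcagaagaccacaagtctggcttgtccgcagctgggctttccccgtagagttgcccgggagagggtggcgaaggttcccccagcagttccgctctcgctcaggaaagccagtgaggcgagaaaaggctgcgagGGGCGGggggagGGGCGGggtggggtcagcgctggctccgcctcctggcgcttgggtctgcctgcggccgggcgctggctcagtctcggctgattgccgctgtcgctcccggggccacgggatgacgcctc
SEMA4C: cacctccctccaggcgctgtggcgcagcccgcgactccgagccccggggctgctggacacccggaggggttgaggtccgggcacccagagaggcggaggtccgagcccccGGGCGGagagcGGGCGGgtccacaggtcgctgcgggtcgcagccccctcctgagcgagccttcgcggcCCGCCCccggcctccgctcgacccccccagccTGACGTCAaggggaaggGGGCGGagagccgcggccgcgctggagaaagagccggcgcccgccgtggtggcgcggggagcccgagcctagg

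The RefSeq table held a window for 8 of the 10 genes, and where it held several, the window nearest the GENCODE start was used. It held 2 windows each for SEMA3C and SEMA7A and 3 each for SEMA3F and SEMA4B. For these genes the motifs and base content below are those of the chosen window only. The start site in the window lay 24316 bases from the GENCODE gene start for SEMA4B, 5479 bases for PLXNA1, 677 bases for SEMA4C and 511 bases for NRP2. The motifs, with the share of the 35116 windows in the table that hold each, were the Sp1 GC box GGGCGG (45.0%), the CCAAT box CCAAT (34.6%), the hypoxia core ACGTG (21.4%), the TEAD motif GGAATG (14.0%), the TATA motif TATAAA (11.5%), the E-box CACGTG (7.3%), which contains the hypoxia core, the E2F motif TTCCCGC (6.6%), the AP-1 motif TGACTCA (4.9%) and the cAMP response element TGACGTCA (1.8%). GC boxes were found in 6 of the 8 windows, with 12 matches in SEMA3F, 5 in PLXNA1, 4 in SEMA4C, and 3 each in SEMA4B, SEMA7A and NRP2. The windows used for SEMA3C and SEMA3D held 0 GC boxes. The SEMA4C window held the cAMP response element, with its first base at position -40 from the start site. A CCAAT box stood in the windows of SEMA3F and SEMA3C. The SEMA3C window had 36.0% G and C, the lowest of the 8, while SEMA3F had 81.3%, SEMA4C 78.0% and SEMA7A 70.0%, beside a median of 58.7% over all windows. These are matches of letters in these windows, and binding was not measured.

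Among the secreted ligands, SEMA3F (ENSG00000001617, chromosome 3, 50155045 to 50189075, plus strand) binds NRP2 and is known as a repellent of endothelial and tumour cells. It had 87.9, 95.3, 87.8 and 88.0 CPM in the SUM159PT siYES1 libraries, against 171.4, 211.7, 215.5 and 221.7 CPM in SUM159PT siNS. The groups did not overlap, the lowest siNS library was the replicate 1 that stood apart, and 43.8% of the control mean remained. The log2 fold change was -1.19 ± 0.0886 (SE), called lower. In MDA-MB-231, where SEMA3F was scarcer, it had 11.5, 10.4, 9.87 and 8.77 CPM with siYES1, against 13.5, 11.1, 15.3 and 15.5 CPM with siNS. These groups overlapped at 1 library each, siYES1 replicate 1 and siNS replicate 2, and the fold change was -0.45 ± 0.127, called lower. It was -0.28, not called, against siNS replicates 1 and 2 alone, and -0.60, called, against siNS replicates 3 and 4 alone.

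SEMA3C (ENSG00000075223, chromosome 7, 80742538 to 80922359, minus strand) binds both neuropilins and is known to promote migration of several tumour cell types. In MDA-MB-231 it had 60.2, 58.5, 59.2 and 54.6 CPM with siYES1, against 145.0, 115.5, 121.0 and 120.1 CPM with siNS. Every siYES1 library lay far below every siNS library, and 46.3% of the control mean remained (log2 fold change -1.11 ± 0.0829, called lower). In SUM159PT it had 129.8, 110.8, 129.6 and 130.5 CPM with siYES1, against 135.0, 138.6, 154.8 and 140.4 CPM with siNS. These groups did not overlap either, but the fold change of -0.18 ± 0.0803 was not called. Without SUM159PT siNS replicate 1 it was -0.22 and was called lower.

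SEMA3A (ENSG00000075213, chromosome 7, 83955777 to 84492724, minus strand) is the founding class 3 repellent of growth cones and signals through NRP1 and class A plexins. In SUM159PT it had 0.228, 0.694, 0.450 and 1.25 CPM with siYES1, from 4, 12, 8 and 26 reads. The SUM159PT siNS libraries had 4.39, 3.72, 3.37 and 3.19 CPM, from 72, 59, 69 and 56 reads. All siYES1 libraries lay below all siNS libraries, and the fold change was -2.45 ± 0.434, called lower. In MDA-MB-231 SEMA3A had 17.9, 17.7, 19.0 and 18.6 CPM with siYES1, against 32.6, 28.6, 28.0 and 24.8 CPM with siNS. Again the groups did not overlap, and 64.3% of the control mean remained (log2 fold change -0.64 ± 0.0958, called lower).

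SEMA3D (ENSG00000153993, chromosome 7, 84995553 to 85186855, minus strand), a guidance ligand of vessels and neural crest derivatives, lies 502829 bases from SEMA3A. In MDA-MB-231 it had 3.17, 2.30, 2.64 and 2.84 CPM with siYES1, against 5.83, 5.61, 5.43 and 5.23 CPM with siNS. The groups were apart, with 49.6% of the control mean remaining (log2 fold change -1.01 ± 0.153, called lower). In SUM159PT the gene was near the limit of detection, with 19, 18, 10 and 25 reads with siYES1, against 19, 0, 2 and 4 reads with siNS. The count of 0 in siNS replicate 2 allows up to 0.183 CPM (3 counts in that library, covering counting error only). The fold change of 1.40 ± 0.799 was not called, and without siNS replicate 1, the library with 19 reads, it was 3.05 and called higher.

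Groups did not overlap, with siYES1 lower, for 5 of the 10 genes in SUM159PT (SEMA3A, SEMA3C, SEMA3F, SEMA7A and PLXNA1) and for 4 in MDA-MB-231 (SEMA3A, SEMA3C, SEMA3D and SEMA7A). With siYES1 higher, this held for 0 genes in SUM159PT and for SEMA4C in MDA-MB-231. Of all genes tested, groups did not overlap with siYES1 lower for 18.6% in SUM159PT and 24.7% in MDA-MB-231, and with siYES1 higher for 18.2% and 22.4%. The choice of the set on these contrasts applies to these counts too.

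Among the membrane-held ligands, SEMA7A (ENSG00000138623, chromosome 15, 74409289 to 74433958, minus strand) promotes axon growth and cell spreading through integrin β1. In MDA-MB-231 it had 105.1, 112.3, 101.1 and 109.1 CPM with siYES1, against 310.8, 311.8, 287.0 and 404.7 CPM with siNS. The highest siYES1 library lay well below the lowest siNS library, and 32.5% of the control mean remained, the smallest share among the 10 genes in this line (log2 fold change -1.62 ± 0.0957, called lower). In SUM159PT SEMA7A had 5.69, 6.47, 4.84 and 5.50 CPM with siYES1, against 7.25, 10.2, 10.8 and 6.84 CPM with siNS. The groups were separated by a narrow gap. The fold change of -0.64 ± 0.204 was called lower with all 8 libraries, but was not called without siNS replicate 2 (-0.56), siNS replicate 3 (-0.52), siYES1 replicate 1 (-0.64), siYES1 replicate 3 (-0.57) or siYES1 replicate 4 (-0.63).

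SEMA4C (ENSG00000168758, chromosome 2, 96859716 to 96870757, minus strand) is a transmembrane ligand of PLXNB2. In MDA-MB-231 it had 45.3, 48.7, 41.7 and 47.1 CPM with siYES1, against 29.4, 28.8, 38.3 and 37.9 CPM with siNS. All siYES1 libraries were higher, and the siNS libraries split into the pairs described above (log2 fold change 0.45 ± 0.102, called higher). The fold change was 0.65 against siNS replicates 1 and 2 alone and 0.27 against replicates 3 and 4 alone, and was called in each. In SUM159PT SEMA4C averaged 38.3 ± 4.28 CPM with siYES1 and 35.1 ± 3.23 CPM with siNS (SD, n = 4 each), with overlapping groups and a fold change of 0.12 ± 0.112 that was not called.

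SEMA4B (ENSG00000185033, chromosome 15, 90160604 to 90229679, plus strand), another transmembrane ligand, ranged over 40.8 to 46.8 CPM with siYES1 and 38.9 to 56.1 CPM with siNS in SUM159PT. In MDA-MB-231 it ranged over 68.2 to 77.2 CPM with siYES1 and 75.6 to 95.5 CPM with siNS. The groups overlapped in each line, and the fold changes of -0.19 ± 0.114 and -0.21 ± 0.0878 were not called. In SUM159PT the gene was called lower without siNS replicate 1 (-0.29). In MDA-MB-231 it was called lower without siNS replicate 1 (-0.26), without siNS replicate 2 (-0.26) and against siNS replicates 3 and 4 alone (-0.35), while against replicates 1 and 2 alone the value was -0.06.

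The receptor PLXNA1 (ENSG00000114554, chromosome 3, 126988594 to 127037392, plus strand) is a class A plexin that pairs with neuropilins. In SUM159PT it had 97.1, 93.8, 90.7 and 98.3 CPM with siYES1, against 129.1, 128.5, 134.6 and 150.8 CPM with siNS. The groups did not overlap, and the fold change was -0.52 ± 0.0769, called lower. In MDA-MB-231 it had 718.9, 690.2, 626.4 and 565.3 CPM with siYES1, against 705.9, 629.8, 848.9 and 824.1 CPM with siNS. The siYES1 libraries lay within or below the siNS range, and the fold change of -0.21 ± 0.0979 was not called. As for SEMA4C, the siNS pairs differed: the value was -0.04, not called, against replicates 1 and 2 alone and -0.36, called lower, against replicates 3 and 4 alone. It was also called without siNS replicate 2 alone (-0.29).

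The co-receptors were called in neither line with all libraries. NRP1 (ENSG00000099250, chromosome 10, 33177492 to 33336262, minus strand), which binds SEMA3A and VEGFA, ranged over 320.1 to 358.7 CPM with siYES1 and 290.8 to 360.0 CPM with siNS in SUM159PT, and over 346.1 to 385.6 CPM with siYES1 and 379.0 to 448.5 CPM with siNS in MDA-MB-231. Its fold changes of 0.01 ± 0.0812 and -0.14 ± 0.0720 were not called, but in MDA-MB-231 it was called lower without siNS replicate 2 (-0.17). NRP2 (ENSG00000118257, chromosome 2, 205681990 to 205798133, plus strand), which prefers SEMA3F and VEGFC, ranged over 59.7 to 69.3 CPM with siYES1 and 52.9 to 70.0 CPM with siNS in SUM159PT, and over 11.2 to 16.6 CPM with siYES1 and 12.1 to 15.3 CPM with siNS in MDA-MB-231. The groups overlapped in each line, and the fold changes of 0.08 ± 0.104 and -0.06 ± 0.130 were not called. A missed threshold does not show equal levels.

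The other 21 genes of the family were set beside these 10. In SUM159PT 17 of them were tested, 10 were called lower and 0 higher by edgeR (0 higher also by DESeq2 or at an unadjusted p under 0.05), with a median log2 fold change of -0.70. In MDA-MB-231 18 were tested, 11 were called lower and 1 higher by edgeR (9 and 1 by DESeq2), with a median of -0.36. Over the whole family, 9 of the 25 genes tested in both lines were called lower in both. The share of all genes called lower in both was not computed. By class, with the 10 genes included, 4 of 6 class 3 ligands, 5 of 11 ligands of classes 4 to 7 and 5 of 8 plexins were called lower in SUM159PT. In MDA-MB-231 these were 6 of 7, 6 of 10 and 4 of 9 (5, 6 and 3 called by DESeq2). Over all genes tested, 19.0% were called lower in SUM159PT and 27.5% in MDA-MB-231. The lists were chosen with earlier results of these data known, so nothing is read from these counts. SEMA3B, the class 3 neighbour of SEMA3F at a distance of 78483 bases, fell in SUM159PT (-0.85, adjusted p = 0.0041 by edgeR) and in MDA-MB-231 (-0.79, adjusted p = 2.83e-06). Its groups overlapped in SUM159PT, where siNS replicate 1 had 18.95 CPM and the siYES1 libraries 16.56 to 20.46 CPM. The other SUM159PT siNS libraries had 34.67 to 40.86 CPM.

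Among transmembrane ligands in SUM159PT, SEMA6D fell by 1.92 on the log2 scale (adjusted p = 2.19e-06 by edgeR), SEMA4D, a PLXNB1 ligand, by 1.24 (adjusted p = 0.000476), and SEMA6B by 0.70 (adjusted p = 2.24e-05). SEMA4G also fell there, by 0.96 (edgeR adjusted p = 0.0143). In MDA-MB-231, SEMA4D fell by 0.29 (edgeR adjusted p = 0.00367), SEMA4G fell by 1.22 (edgeR adjusted p = 0.000403), SEMA6C by 0.92 (adjusted p = 1.62e-05) and SEMA5A by 0.93 (adjusted p = 0.000551). Among receptors, PLXNB1 fell by 1.37 in MDA-MB-231 (adjusted p = 7.82e-08) and by 0.43 in SUM159PT (adjusted p = 0.0221). PLXNC1, the plexin that binds SEMA7A, fell by 1.08 in SUM159PT (adjusted p = 0.00222), while its fold change of -0.36 in MDA-MB-231 was not called (adjusted p = 0.104). PLXNB2, the receptor of SEMA4C, fell by 0.52 in SUM159PT (adjusted p = 9.94e-05) and by 0.31 in MDA-MB-231 (adjusted p = 0.00207). PLXNA2, the paralog of PLXNA1, rose in MDA-MB-231 (0.88, adjusted p = 1.31e-06), where it was the only plexin called higher by edgeR's quasi-likelihood test.

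**Figure D2:**
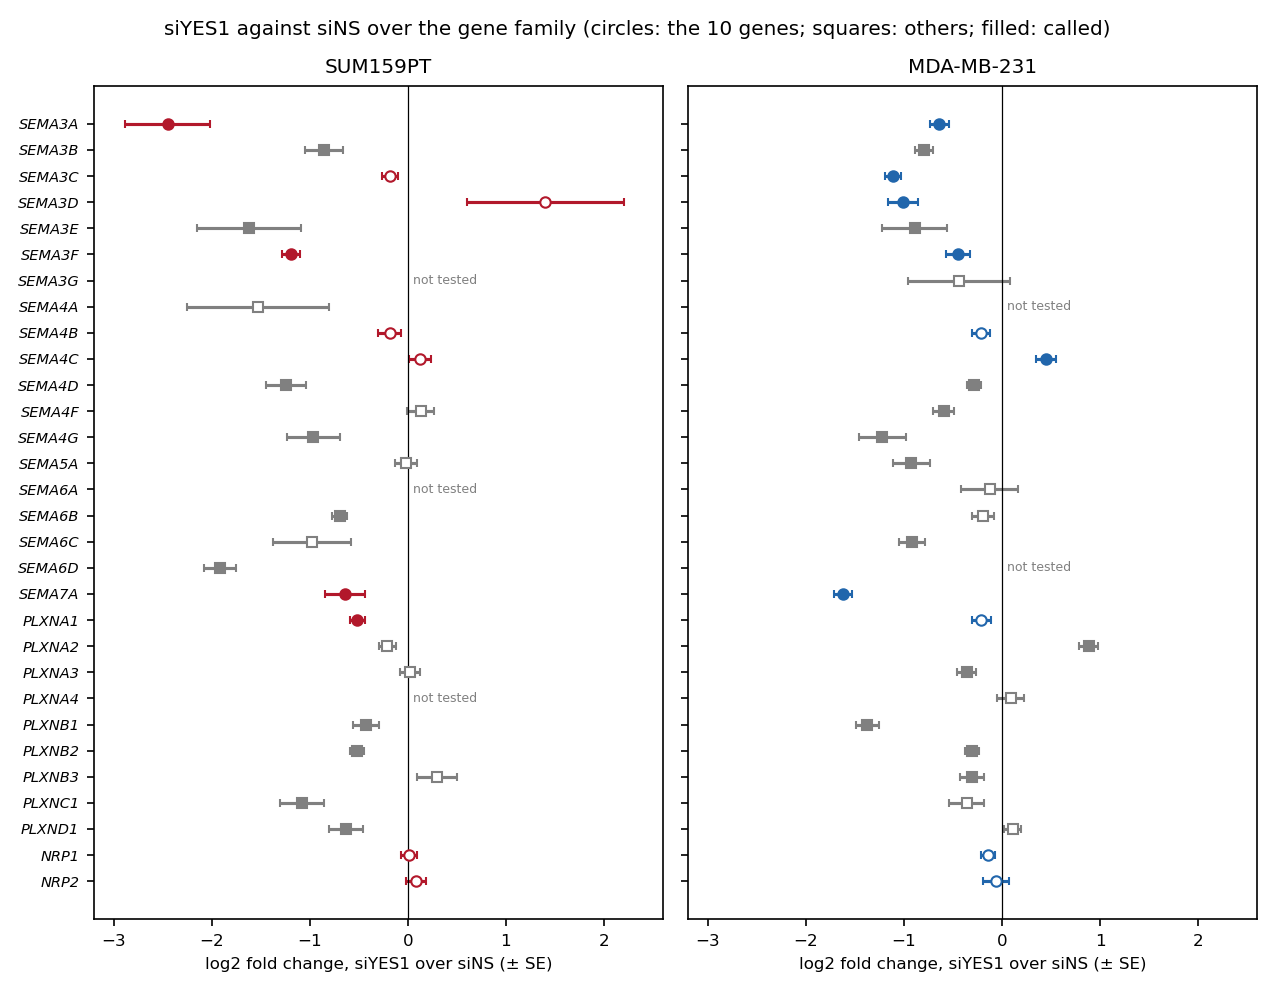
Log2 fold change of siYES1 over siNS (x axis, ± SE of the edgeR fit) for each tested gene of the family, in SUM159PT (left) and MDA-MB-231 (right). Circles are the 10 genes and squares the others, filled where called. Filled symbols lie mostly left of 0, with SEMA4C and PLXNA2 right of 0 in MDA-MB-231.

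Co-receptors, VEGF genes and intracellular effectors held calls in both directions in each line. Of 8 tested co-receptors and integrin receptors, 3 were called higher and 2 lower in SUM159PT (median 0.21), against 1 higher and 4 lower in MDA-MB-231 (median -0.29). DESeq2 called 3 of these receptors higher and 1 lower in SUM159PT, and 1 and 4 in MDA-MB-231. In the difference of the siYES1 effects, SUM159PT minus MDA-MB-231, edgeR called 3 of the 9 tested higher and 0 lower (0 lower also by DESeq2 or at an unadjusted p under 0.05; median 0.33). Of all genes tested, 15.4% were called higher and 8.85% lower in this difference. The lists were chosen with earlier results of these data known, so nothing is read from these counts. ITGB1, the integrin chain that binds SEMA7A, rose in SUM159PT (1489 ± 28.1 CPM with siYES1 and 688.5 ± 15.7 CPM with siNS, log2 fold change 1.11, edgeR adjusted p = 6.1e-08) and in MDA-MB-231 (1107 ± 9.95 and 446.4 ± 50.8 CPM, 1.31, adjusted p = 1.7e-09; SD, n = 4 each). Of 5 tested VEGF genes, 2 were called higher and 2 lower in SUM159PT, and 1 higher and 3 lower in MDA-MB-231. DESeq2 called 2 higher and 3 lower in SUM159PT, and 1 and 3 in MDA-MB-231. Of all genes tested, edgeR called 17.7% higher and 19.0% lower in SUM159PT, and 24.9% and 27.5% in MDA-MB-231. Nothing is read from the co-receptor and VEGF counts beside these shares. VEGFA, an NRP1 ligand, fell in MDA-MB-231 (205.2 ± 9.04 CPM with siYES1 and 451.6 ± 30.6 CPM with siNS, -1.14, adjusted p = 2.11e-09), and KDR, the VEGF receptor that joins NRP1, fell in SUM159PT (1.75 ± 0.235 and 19.7 ± 4.48 CPM, -3.49, adjusted p = 2.07e-07). KDR also fell in MDA-MB-231 (-0.61, edgeR adjusted p = 0.0136), while VEGFA was not called in SUM159PT (0.06, adjusted p = 0.792). KDR is also on the endothelial marker list and made up most of its sum in SUM159PT siNS.

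Of the intracellular plexin effectors, 28 were tested in SUM159PT, with 11 called higher and 5 lower (median 0.20). In MDA-MB-231 30 were tested, with 7 higher and 13 lower (median -0.09). DESeq2 called 11 higher and 4 lower in SUM159PT, and 7 and 13 in MDA-MB-231. The shares over all genes tested were 17.7% higher and 19.0% lower in SUM159PT, and 24.9% and 27.5% in MDA-MB-231. Nothing is read from these counts of effectors. For the difference of their siYES1 effects, SUM159PT minus MDA-MB-231, 31 were tested and edgeR called 14 higher and 0 lower (DESeq2 13 and 0, with 0 lower at an unadjusted p under 0.05; median 0.43), beside 15.4% of all genes called higher and 8.85% lower. This list was chosen with earlier results of these data known. Scaling by total counts moved the median of all genes by -0.22 in this difference. It called 1375 of all genes higher and 2795 lower, so nothing is read from this split. RAP1B, a small GTPase of the kind plexins inactivate, rose in SUM159PT by 0.85 (edgeR adjusted p = 2.9e-06) and in MDA-MB-231 by 0.80 (adjusted p = 9.15e-07). Its paralog RAP1A fell by 1.10 in MDA-MB-231 (adjusted p = 1.52e-07) and was not called in SUM159PT (-0.34, adjusted p = 0.0585). FYN, a SRC family kinase that acts below SEMA3A, fell by 0.20 in SUM159PT (adjusted p = 0.0483) and by 1.04 in MDA-MB-231 (adjusted p = 2.2e-08). Of the proprotein convertases, enzymes that cut class 3 semaphorins, FURIN, PCSK6 and PCSK7 were tested in SUM159PT, where PCSK6 was called lower (-0.52, adjusted p = 0.0204). PCSK6 had 19.74 CPM in SUM159PT siNS replicate 1 and 12.91 to 14.78 CPM in the other siNS libraries, against 10.06 to 11.91 CPM with siYES1. In MDA-MB-231, where FURIN, PCSK5 and PCSK7 were tested and PCSK6 did not pass the filter, 0 were called by edgeR or DESeq2, with 0 at an unadjusted p under 0.05.

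Levels of different genes were compared as CPM per kb of merged exons. The summed level of the class 3 ligands was 42.0 ± 0.533 CPM per kb in SUM159PT siYES1 and 71.6 ± 6.84 CPM per kb in SUM159PT siNS, and 20.3 ± 0.810 CPM per kb in MDA-MB-231 siYES1 and 38.1 ± 1.78 CPM per kb in MDA-MB-231 siNS (SD, n = 4 each). SEMA3F made up 44.3 ± 2.38% of this sum in SUM159PT siYES1 and 59.3 ± 1.33% in SUM159PT siNS. SEMA3C made up 47.5 ± 3.12% and 31.8 ± 2.49%, so the leading class 3 transcript per length was SEMA3F in siNS, while in siYES1 the levels of SEMA3C and SEMA3F overlapped between libraries. The level of SEMA3C itself was 19.97 CPM per kb in SUM159PT siYES1 and 22.69 CPM per kb in SUM159PT siNS. In MDA-MB-231 SEMA3C led in both groups by merged exons, with 45.6 ± 0.525% in siYES1 and 52.4 ± 4.06% in siNS, ahead of SEMA3B. With the longest transcript as length this order changed in siYES1, where SEMA3B made up 40.5% and SEMA3C 39.9% of the sum with overlapping library ranges, against 37.8% and 46.3% in siNS.

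Among ligands of classes 4 to 7 in MDA-MB-231, SEMA7A made up 35.0 ± 1.01% of the summed level with siYES1 and 59.3 ± 4.50% with siNS (SD, n = 4 each). The sum itself was 80.3 ± 2.59 CPM per kb with siYES1 and 145.8 ± 18.4 CPM per kb with siNS. SEMA4C made up 9.23 ± 0.419% and 3.74 ± 0.388% of it, at its own levels of 7.42 and 5.45 CPM per kb. A share also moves with the other genes in the sum. On the receptor side, PLXNA1 was 15.7 ± 0.595% of plexin transcripts in SUM159PT siYES1 and 16.5 ± 0.442% in SUM159PT siNS, and 44.4 ± 1.17% in MDA-MB-231 siYES1 and 44.3 ± 1.84% in MDA-MB-231 siNS. NRP2 was 13.6 ± 1.27% of neuropilin transcripts in SUM159PT siYES1 and 13.0 ± 1.32% in SUM159PT siNS, and 2.81 ± 0.470% and 2.68 ± 0.329% in MDA-MB-231. The library ranges of these receptor shares overlapped between siYES1 and siNS in each line.

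**Figure D3:**
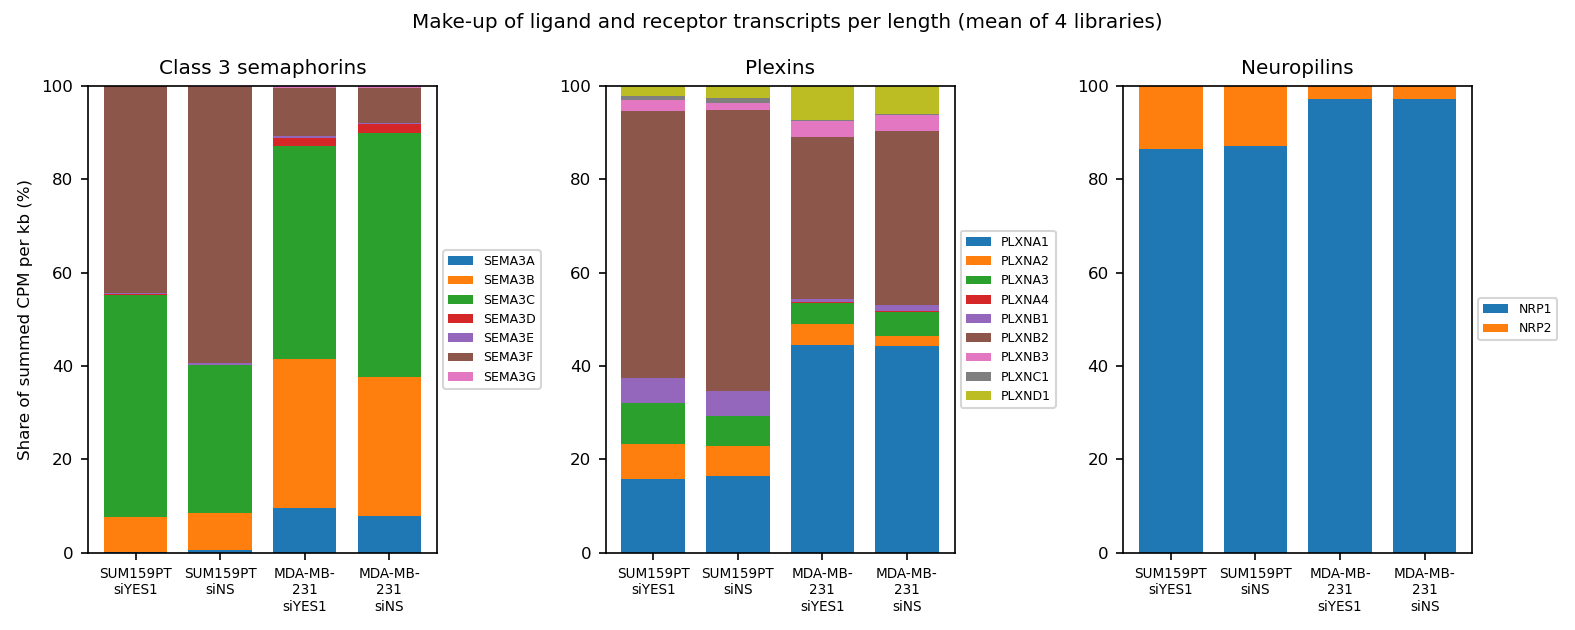
Share of the summed CPM per kb (y axis, %, mean of 4 libraries) taken by each gene among class 3 semaphorins, plexins and neuropilins, by group, with siYES1 left of siNS. SEMA3F takes 44.3% of class 3 transcripts in SUM159PT siYES1 and 59.3% in SUM159PT siNS, while PLXNA1 takes 44.4% and 44.3% of plexin transcripts in MDA-MB-231 siYES1 and siNS.

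Control levels were compared between the lines in siNS cells. The rule did not use this contrast, but the siNS values were known when the genes were chosen. The differences are therefore given as a description too, without p-values. Of the 10, 2 genes were called higher and 6 lower in SUM159PT than in MDA-MB-231 by edgeR, beside 38.0% of all genes called higher and 39.0% called lower, so nothing is read from the number called. SEMA7A was lower by the widest margin, with 8.78 ± 2.03 CPM in SUM159PT and 328.6 ± 52.0 CPM in MDA-MB-231 (log2 difference -5.27 ± 0.146 SE). SEMA3F was higher, with 205.1 ± 22.8 CPM in SUM159PT and 13.8 ± 2.07 CPM in MDA-MB-231 (3.84 ± 0.115). PLXNA1 was lower (-2.52 ± 0.0975), as were SEMA3A (-3.01 ± 0.196), SEMA3D (-3.96 ± 0.491), SEMA4B (-0.84 ± 0.105) and NRP1 (-0.31 ± 0.0780). NRP2, the co-receptor of SEMA3F, was higher (2.13 ± 0.128). SEMA3C (0.13 ± 0.0838) and SEMA4C (0.02 ± 0.114) were not called by edgeR. SUM159PT libraries thus held more of the SEMA3F and NRP2 transcripts, and MDA-MB-231 libraries more of SEMA3A, SEMA7A and PLXNA1.

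Per length of merged exons, the order in SUM159PT siNS was SEMA3F (42.5 CPM per kb), NRP1 (29.5), SEMA3C (22.7), PLXNA1 (12.4), SEMA4B (7.06), SEMA4C (5.70), NRP2 (4.38), SEMA7A (2.31), SEMA3A (0.391) and SEMA3D (0.046), and of these neighbours only SEMA4B and SEMA4C had overlapping library ranges. In MDA-MB-231 siNS it was SEMA7A (86.5 CPM per kb), PLXNA1 (68.7), NRP1 (35.3), SEMA3C (20.01), SEMA4B (12.2), SEMA4C (5.45), SEMA3A (3.04), SEMA3F (2.87), NRP2 (0.969) and SEMA3D (0.685). There the ranges of SEMA7A and PLXNA1 overlapped, as did those of SEMA3A and SEMA3F. With siYES1 the leading gene was NRP1 in SUM159PT (29.7 CPM per kb) and PLXNA1 in MDA-MB-231 (59.4 CPM per kb). These orders hold for merged exons. With the longest transcript as length, NRP1 (57.8 CPM per kb) stood above SEMA3F (53.9) in SUM159PT siNS with overlapping ranges, and the ranges of PLXNA1 (71.7) and NRP1 (62.7) overlapped in MDA-MB-231 siYES1.

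**Figure D4:**
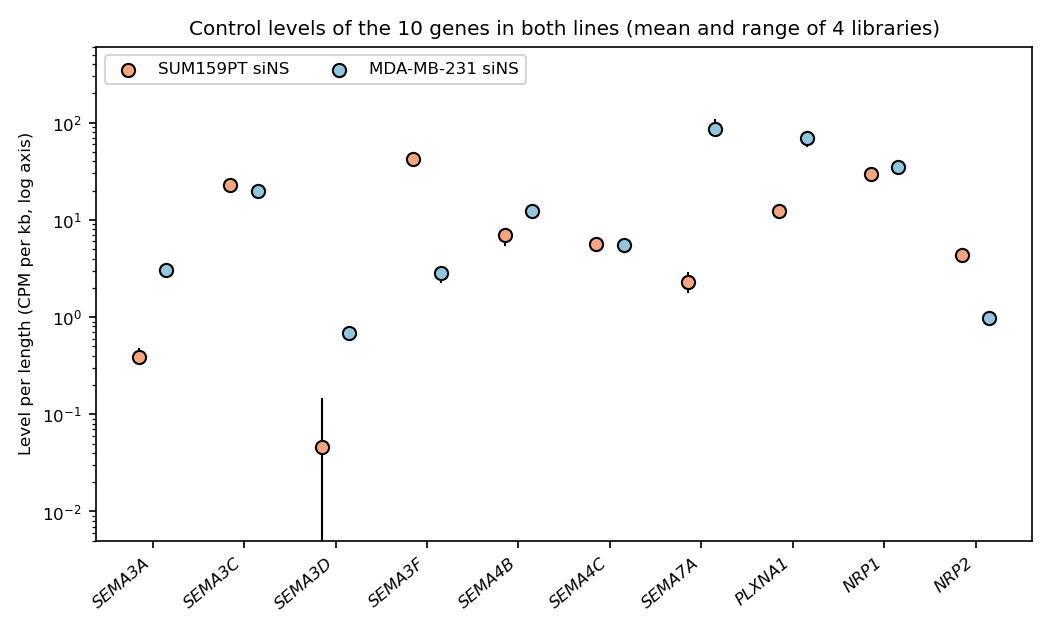
Level per length (y axis, CPM per kb, log axis) of the 10 genes in siNS cells of SUM159PT (left point) and MDA-MB-231 (right point), as mean and range of 4 libraries. SEMA3F and NRP2 lie higher in SUM159PT and SEMA3A, SEMA3D, SEMA7A and PLXNA1 higher in MDA-MB-231. The SEMA3D range in SUM159PT includes a library with a count of 0.

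The siYES1 effect on SEMA3A, SEMA3C, SEMA3D, SEMA3F and SEMA7A differed between the lines in the joint fit of line and siRNA, again as a description because both contrasts were known. The difference (SUM159PT effect minus MDA-MB-231 effect, log2) was called higher for SEMA3D (2.53 ± 0.670), SEMA7A (1.07 ± 0.194) and SEMA3C (1.02 ± 0.120), whose siYES1 levels relative to siNS were lower in MDA-MB-231. It was called lower for SEMA3A (-1.69 ± 0.325) and SEMA3F (-0.65 ± 0.155), for which they were lower in SUM159PT. The other 5 genes were not called, with differences of -0.23 to 0.25. Of all genes tested, the difference was called higher for 15.4% and lower for 8.85% (2511 and 1442 genes, but 1375 and 2795 when scaled by total counts). SEMA3C is the gene of these whose control levels were not called different between the lines, while its response to siYES1 was.

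Reads of overlapping antisense genes could bear on 3 of the 10 genes, since the sources used here do not state whether counting used strand. SEMA3F-AS1 shares 110 exonic bases with SEMA3F and had 118 counts over all libraries beside 22902 for SEMA3F. AL121748.2 shares 561 bases with NRP1 and had 26 counts beside 108258, and AC007362.1 shares 147 bases with NRP2 and had 0.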

How the data were processed

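RNA was measured in 16 libraries of 2 lines. The authors deposited whole-number read counts per Ensembl gene in 1 table per line. Per the submitters' processing notes, HISAT2 2.0.5, featureCounts 1.5.0-p3 and hg38 were used; the annotation and strand setting are not given in these sources. All 58735 identifiers matched GENCODE 29.

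Counts were tested with edgeR 4.0.16 (R 4.3.3): TMM scaling, filterByExpr, quasi-likelihood F test, Benjamini-Hochberg adjustment over all genes tested, called under 0.05. Each line was fitted alone, and a joint fit of all 16 libraries gave the difference of effects and the siNS contrast between lines. The fits were tested on simulated data. CPM are counts scaled by TMM factors set within each line, with the lines set against each other by factors over all libraries. SE is the log2 fold change divided by the root of F. Levels per kb use merged GENCODE exons.

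The 10 genes and all gene lists were chosen with earlier results of these data known. Named are the 10 genes and YES1, with others drawn from 2 sources. These were the tested family genes and, per other list and line, up to 3 called genes with the largest change at a mean of 5 CPM or more. Not every gene of these sources was described. SEMA3E and PGF, each called lower in both lines, are among those left out. DESeq2 1.42.0, RLE and total-count scaling, other filters, a replicate block and leaving out each library were alternatives. No replicate pair was closer than sampling noise. Every sample column was used. Some results on plexin effectors are not reported here.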

Additional observations from a re-analysis of the deposited data

Results flagged for a closer look

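In groups of 4 libraries, 3 of 44 groups of values held a library far from the other 3 relative to the range of the group, and chance gives about 1 in 20. SUM159PT siYES1 replicate 2 was low for SEMA3C (110.8 CPM) and high for SEMA3F (95.3 CPM). SUM159PT siNS replicate 2 was low for NRP1 (290.8 CPM).

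For the genes below, the siYES1 effect was called different between SUM159PT and MDA-MB-231 (edgeR, joint fit, SUM159PT minus MDA-MB-231, log2). The 10 genes and the lists were chosen with earlier results of these data known, so this is a description. Of all genes tested, 15.4% were called higher and 8.85% lower, and nothing is read from the number called. Scaling by total counts called 10 family genes lower, where TMM scaling called 5. The difference was above 0 for SEMA3C (1.02), SEMA3D (2.53), SEMA7A (1.07), SEMA4F (0.82), SEMA5A (1.00), PLXNA3 (0.48), PLXNB1 (1.04) and PLXNB3 (0.70). It was below 0 for SEMA3A (-1.69), SEMA3F (-0.65), SEMA4D (-0.86), PLXNA2 (-0.99), PLXND1 (-0.65) and the targeted gene YES1 (-0.66). PLXNA2 was called higher in MDA-MB-231 and was not called in SUM159PT (-0.21). For SEMA3D in SUM159PT the effect rests on few reads, most of the siNS reads being in replicate 1.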

How the results depend on the processing

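The alternatives were RLE or total-count scaling, no filter or a mean of 1 CPM as filter, DESeq2, a replicate block, each library left out, longest transcripts as length, and, added after seeing the data, the pairs of MDA-MB-231 siNS libraries as separate controls. No called fold change of the 10 genes reversed. With total counts, MDA-MB-231 had 8 of the 10 genes lower; SUM159PT had 1394 genes higher and 4173 lower; the difference between lines had 1375 higher and 2795 lower, with 4 of the 10 genes and 10 family genes lower. Leaving out libraries gave, for the 10 genes, 3 to 6 lower and 0 to 1 higher in SUM159PT, 5 to 8 lower and 1 higher in MDA-MB-231, and 2 to 3 higher between lines; for the family, 11 to 16 lower and 0 to 1 higher in SUM159PT. The 1 higher call is SEMA3D without SUM159PT siNS replicate 1, and the 8 lower calls are without MDA-MB-231 siNS replicate 2. For all genes in SUM159PT they gave 2025 to 3083 higher and 2298 to 3154 lower. Between lines, SEMA3C was called without MDA-MB-231 siNS replicate 1 (0.21). With total counts, SEMA3C (-0.35) and SEMA4B (-0.35) were called in SUM159PT, and SEMA4B (-0.26), PLXNA1 (-0.26) and NRP1 (-0.19) in MDA-MB-231; the difference was called for SEMA4C (-0.44) and PLXNA1 (-0.43). Without a filter PLXNA1 was called in MDA-MB-231 (-0.20). The cause was not tested. Same-numbered libraries deviated together in 1 of 8 pairs (correlations -0.247 to 0.168), so the numbers are not taken to pair them. With the replicate block, SUM159PT had 2433 genes higher and 2528 lower, with 4 of the 10 genes lower, and MDA-MB-231 3382 higher and 3727 lower, with 5 lower and 1 higher. With longest transcripts, SEMA7A made up 29.8% and 53.7% of class 4 to 7 ligands in MDA-MB-231 siYES1 and siNS. SEMA3D and SEMA3A in SUM159PT are limited by depth.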
